A study of Mus musculus with 2 samples.

Results

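The genes described here are 10 immediate early genes, Fos, Fosb, Jun, Junb, Jund, Egr1, Ier2, Ier3, Dusp1 and Atf3, chosen by name from the 32285 genes of the matrices and followed across cell types and within single cells. All 10 were found in both libraries. Cells were sorted from peripheral retina of E13.5 mouse embryos, and the study set albino against pigmented animals. The albino group is 1 library with the strain label Swizz ICR, and the pigmented group is 1 library with the strain label Tyrc2j. Both carried α-Cre;Td, in which a Cre transgene that acts in the peripheral retina switches on the red protein TdTomato, and TdTomato-positive cells were collected by flow cytometry after papain digestion. Each library pooled the optic cups of 3 embryos. Tyrc2j is otherwise the name of a tyrosinase allele that makes mice albino, so the label of the pigmented library goes against its title. The titles were followed, and an exchange of the libraries would invert the ratios between them. If the strain label held and the title did not, the ratios would not compare pigmentation at all.

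Immediate early genes are transcribed within minutes of a stimulus from factors already present in the cell, chiefly serum response factor with its MAP kinase driven partners and CREB, and their short-lived RNAs are cleared again soon after. Fos, Fosb, Jun, Junb and Jund encode subunits of the AP-1 transcription factor, Egr1 a zinc finger transcription factor and Atf3 a stress-responsive factor of the ATF family. Dusp1 encodes a phosphatase that switches MAP kinases off, Ier2 a small nuclear protein, and Ier3 a protein linked to cell survival. Enzymatic dissociation of a tissue is known to induce many of them, and in the developing retina growth factor signalling through MAP kinase does so too.

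The promoters of these genes are known for binding sites of CREB and ATF proteins, whose core is TGACG and whose full form is TGACGTCA. The stretches before the start sites of 4 members that are followed below are shown for that reason, from RefSeq on build GRCm38.p6, in lower case with each TGACG on either strand in capitals. They are Fos at chr12:85473640-85473889 on the plus strand, Fosb at chr7:19310046-19310295, Junb at chr8:84978749-84978998 and Dusp1 at chr17:26508473-26508722, the last 3 on the minus strand.
Fos: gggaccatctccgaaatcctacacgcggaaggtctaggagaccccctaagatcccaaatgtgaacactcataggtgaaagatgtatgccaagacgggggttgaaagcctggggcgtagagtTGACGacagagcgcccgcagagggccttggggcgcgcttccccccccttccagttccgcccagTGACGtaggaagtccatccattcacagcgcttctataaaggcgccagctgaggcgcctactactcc
Fosb: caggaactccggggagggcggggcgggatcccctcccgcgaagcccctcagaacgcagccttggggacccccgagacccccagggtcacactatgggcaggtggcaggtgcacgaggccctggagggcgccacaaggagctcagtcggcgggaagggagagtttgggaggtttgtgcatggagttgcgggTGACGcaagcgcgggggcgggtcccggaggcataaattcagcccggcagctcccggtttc
Junb: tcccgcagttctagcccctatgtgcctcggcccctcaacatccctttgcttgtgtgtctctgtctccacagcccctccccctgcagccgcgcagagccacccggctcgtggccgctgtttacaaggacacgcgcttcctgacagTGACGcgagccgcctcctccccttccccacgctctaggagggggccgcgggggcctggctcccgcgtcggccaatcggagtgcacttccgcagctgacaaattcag
Dusp1: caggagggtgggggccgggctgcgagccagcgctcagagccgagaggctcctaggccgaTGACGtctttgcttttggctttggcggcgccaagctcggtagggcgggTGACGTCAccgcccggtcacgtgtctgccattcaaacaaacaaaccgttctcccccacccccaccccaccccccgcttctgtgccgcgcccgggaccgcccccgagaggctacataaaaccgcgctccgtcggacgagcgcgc
Fos held TGACG 129 and 66 bases before its start, Fosb 60 bases and Junb 106 bases before it. Dusp1 held it 191, 143 and 140 bases before its start, the last 2 overlapping on opposite strands as the palindrome TGACGTCA. RefSeq windows of 300 bases, 250 before and 50 after a start, were matched for 8 of the 10 members, which leaves out Egr1 and Ier2. Of these 8 windows, 5 held TGACG on either strand (Fos, Fosb, Junb, Dusp1 and Atf3), against 20.9% of all 32544 windows. TGACGT, which overlaps it, was in 3 (Fos, Dusp1 and Atf3), against 7.55% of windows. TGACGTCA was in 1 (Dusp1), against 1.80%. None of the 8 held TGANTCA, the core of an AP-1 site, which 7.79% of windows held, or the CArG box, the site of serum response factor, which 1.64% held. Sites more than 250 bases before a start, and all sites of Egr1 and Ier2, are outside this count. It therefore does not show that the promoters lack either site. A match describes these letters only, and no factor's binding was measured.

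The members are mostly compact genes. On GRCm38, Fos lies at chr12:85473890-85477273 with 4 exons, Fosb at chr7:19302696-19310051 with 4, Junb at chr8:84974484-84978718 with 1 and Jund at chr8:70698949-70700616 with 1. Jun, Junb, Jund and Ier2 have no intron. Of the 10 gene spans, 8 were under the median of protein-coding genes, which is 17318 bases. AU-rich elements in the 3′ UTR, known to speed decay of RNA, were counted as ATTTA. There were 4 in Fos, Jun and Dusp1 and 5 in Ier3, and 8 of 10 members had more ATTTA per kilobase of UTR than the median gene, at 1.22. The longer element TTATTTATT was in 2 members, Fos and Dusp1, and in 7.28% of genes. Exons of Jun, Junb, Jund and Dusp1 overlap a gene on the opposite strand (Junos, Prdx2, Gm11175 and Ergic1), and since no source used here gives the strand setting of the counting, the levels of these 4 could hold reads of the partner.

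After filters, 3461 albino and 5743 pigmented cells remained, with a median of 11182 and 10344 UMIs (unique molecules counted) per cell. The deposited totals were 46271969 UMIs in the albino library and 69965728 in the pigmented library. Cells were clustered without the members and the related gene lists, so that the members' levels by class were not set by the clustering. Classes were named from markers and are written with "-like". The 8 retinal classes held 3067 albino and 5162 pigmented cells. Retinal progenitor (RPC-like) cells were the most numerous, 1084 albino and 2082 pigmented, followed by the ciliary margin (CMZ-like), neurogenic and transitional precursor classes, ganglion cells (RGC-like), photoreceptors and amacrine or horizontal cells. Non-retinal classes were mesenchyme-like (91 albino and 166 pigmented cells), myeloid-like (29 and 26), pigment epithelium (RPE-like, 16 and 40) and surface ectoderm-like (52 and 4) cells. The sort thus held cells outside the neural retina, and 206 albino and 345 pigmented cells stayed unnamed. The libraries shared 8 barcodes, 6 of them among kept cells. Levels are a gene's summed UMIs in a class per 1000000 UMIs of that class (CPM). Each interval is a 95% interval of counting error and leaves out differences between embryos or preparations. With 1 library a group there is no replicate check and no test, and albino or pigmented cannot be told apart from strain, sex makeup of the pool, handling or library. Free RNA in droplets can add a low level of any member to every class.

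In the neural retina, Fos RNA was concentrated in progenitors and low in neurons. Fos was at 305 CPM in albino and 477 CPM in pigmented RPC-like cells, and at 161 and 200 CPM in CMZ-like cells. Next came neurogenic or transitional-like cells, clusters whose markers did not separate these states, at 106 CPM in albino and 155 CPM in pigmented cells. Neurogenic-like cells had 52.0 and 90.4 CPM, transitional precursor-like cells 39.0 and 67.9 CPM, and RGC-like cells 19.8 and 31.3 CPM. The order of the retinal classes was the same in both libraries down to the neurogenic-like class, and RGC-like cells were the lowest of the 11 classes in each. The neurogenic-like class joined clusters far apart in Fos. In that led by Pcdh17, with 92 albino and 185 pigmented cells, Fos was at 4.17 and 15.7 CPM, below the RGC-like class, and in that led by Cck, with 39 and 84 cells, at 165 and 259 CPM. The highest retinal class exceeded the lowest 15.4-fold in the albino and 15.2-fold in the pigmented library. Photoreceptor-like cells had 27.3 and 47.0 CPM and amacrine or horizontal-like cells 39.5 and 36.1 CPM, on 31 and 108 and on 23 and 34 UMIs. At the low end neighbours in the order overlap within counting error, photoreceptor-like with RGC-like cells in the albino library and amacrine or horizontal-like with both in the pigmented library.

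Fosb, the close relative of Fos, and Junb were likewise higher in progenitors than in ganglion cells. Fosb was at 116 CPM in albino and 185 CPM in pigmented RPC-like cells, and at 7.14 and 11.5 CPM in RGC-like cells. Junb was at 75.5 and 105 CPM in RPC-like cells and at 19.7 and 20.7 CPM in RGC-like cells. Jun, which pairs with Fos proteins in AP-1, kept a second high retinal class. It was at 250 CPM in albino and 339 CPM in pigmented RPC-like cells, at 223 and 255 CPM in photoreceptor-like cells, and at 49.0 and 72.4 CPM in transitional precursor-like cells. The photoreceptor-like class thus had little Fos beside a Jun level near that of progenitors.

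Jund went the other way. It was at 1007 CPM in albino and 1087 CPM in pigmented RGC-like cells, the highest retinal class in both libraries, against 718 and 820 CPM in RPC-like cells. CMZ-like cells were the lowest retinal class, at 571 and 606 CPM. Jund is known as the AP-1 subunit that is expressed without a stimulus. Because Jund makes up so much of the summed level of the 10 members, sums over the members vary less between classes than Fos or Egr1 do.

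Egr1, a target of MAP kinase signalling, had a retinal order of its own. Amacrine or horizontal-like cells were the highest retinal class, at 91.0 CPM in albino and 79.7 CPM in pigmented cells, with RPC-like cells at 73.2 and 76.1 CPM. The intervals of these classes overlap in each library. Neurogenic-like cells were the lowest, at 10.98 and 11.7 CPM. Dusp1 was at 80.4 CPM in albino and 109 CPM in pigmented RPC-like cells and at 80.7 and 70.1 CPM in amacrine or horizontal-like cells, while photoreceptor-like cells were lowest at 31.7 and 41.7 CPM. Egr1 and Dusp1 were therefore as high in amacrine or horizontal-like cells as in progenitors in the albino library, in a class where Fos was low.

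Ier3 and Atf3 were highest among retinal classes in photoreceptor-like cells. Ier3 was at 53.8 CPM in albino and 54.8 CPM in pigmented photoreceptor-like cells, against 5.15 and 6.22 CPM in RPC-like cells. Atf3 was at 12.3 and 16.5 CPM in photoreceptor-like cells, on 14 and 38 UMIs, and at 1.43 and 1.42 CPM in RPC-like cells. It had no UMI in neurogenic-like or amacrine or horizontal-like cells of either library. Ier2 was at 54.2 CPM in albino and 67.5 CPM in pigmented neurogenic-like cells, at 128 and 139 CPM in RGC-like cells and at 179 and 199 CPM in RPC-like cells, so that it kept a level in ganglion cells where Fos was low.

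**Figure D1:**
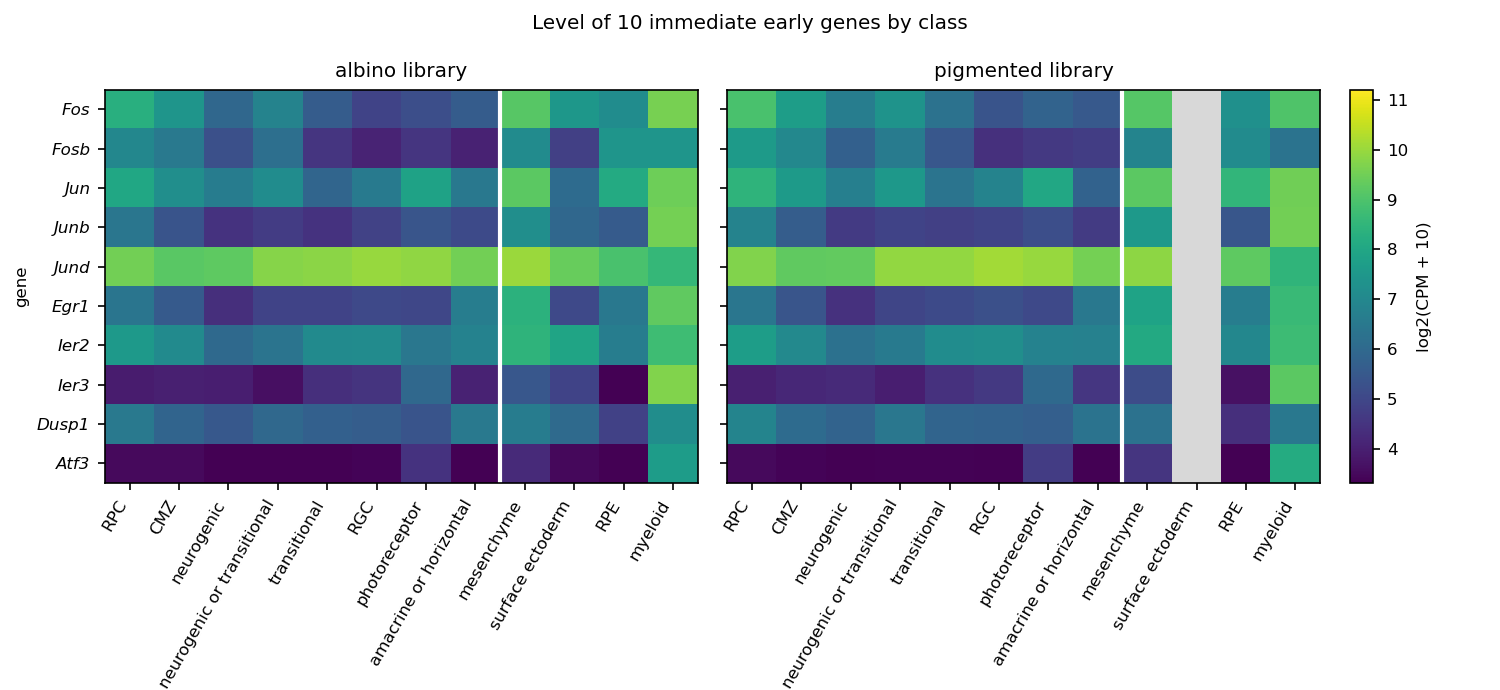
Level of each member as log2(CPM + 10), in colour, by class and library (albino left, pigmented right). Retinal classes lie left of the white line, and grey marks a class with under 15 cells in that library. Fos, Fosb and Junb are bright in progenitors and dim in neurons, Jund is bright in neurons, and Ier3 and Atf3 stand out in myeloid and photoreceptor classes.

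By class, mesenchyme-like and myeloid-like cells carried the highest levels of most members. In mesenchyme-like cells, Fos was at 554 CPM in albino and 552 CPM in pigmented cells, Jun at 581 and 585 CPM, and Egr1 at 325 and 225 CPM. In myeloid-like cells, Fos was at 756 and 511 CPM, Jun at 700 and 705 CPM, and Egr1 at 616 and 396 CPM. These levels lay above those of the retinal classes pooled, where Egr1 was at 41.5 and 45.8 CPM. The pooled level includes neurons low in Fos, and RPC-like cells alone had Fos at 305 and 477 CPM. In the pigmented progenitor cluster led by Hist1h2ap, Fos was at 696 CPM and the sum of the members at 3230 CPM, above the mesenchyme-like class. In the albino library that cluster lay below the class, at 399 and 2306 CPM.

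Within each library, each class was set over the retinal classes. Mesenchyme-like over retinal cells, 8 of 10 members were at least 2-fold higher in the albino library, where 13.1% of all genes were, and 6 of 10 in the pigmented library, where 12.9% were. The 6 were Fos, Jun, Junb, Egr1, Ier3 and Atf3. The albino library added Fosb and Ier2. Egr1 had the largest ratio among members with over 100 UMIs in that class, 7.83 (6.96 to 8.78) in albino and 4.92 (4.45 to 5.43) in pigmented cells. Fosb and Dusp1, at 0.98 and 0.91 in the pigmented library, were not separable from the retinal level there. The sum of the 10 members was 2.23-fold and 1.68-fold the retinal sum in the albino and pigmented libraries.

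Myeloid-like cells had a distinct balance of members. Junb, at 738 CPM in albino and 718 CPM in pigmented cells, was 19.0-fold and 12.8-fold the retinal level. Ier3 reached 826 and 586 CPM, and Atf3 192 and 278 CPM. Ier3 was 90.9-fold and 56.3-fold, and Atf3 162-fold and 200-fold, the retinal level in the albino and pigmented libraries. Both are low in retinal cells, which makes these ratios large. Jund was the exception, at 371 and 344 CPM and 0.46 and 0.41 of the retinal level. At least 2-fold over retinal cells were 9 of 10 members in albino myeloid-like cells (13.9% of all genes) and 7 of 10 in pigmented ones (12.4%). These counts rest on 29 and 26 cells. The cells carried the myeloid markers C1qa, C1qb, C1qc, Tyrobp and Fcer1g among their 10 leading genes.

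Other non-retinal classes did not share the pattern. Surface ectoderm-like cells, present in number only in the albino library, had 171 CPM of Fos, 232 CPM of Ier2 and 57.3 CPM of Jun, and 1 of 10 members was at least 2-fold over retinal cells (3.32% of all genes). RPE-like cells had 132 CPM of Fos in albino and 146 CPM in pigmented cells, and 1 and 0 members at least 2-fold over retinal cells (20.7% and 15.8% of all genes). Single members were raised in RPE-like cells all the same. Jun was at 1.80 of the retinal level in albino and 1.63 in pigmented cells, and Egr1 at 1.91 and 1.98. Beyond counting error, 3 members lay above and 2 below the retinal level in albino RPE-like cells. In pigmented ones 2 lay above and 3 below. The highest summed levels outside the retina were those of mesenchyme-like and myeloid-like cells. Surface ectoderm-like cells had a median of 45074.5 UMIs, so they weigh heavily in any albino level pooled over non-retinal cells.

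Progenitors of the albino library had less RNA of most members than progenitors of the pigmented library. In RPC-like cells, 9 of 10 members had a ratio of albino over pigmented under 1, as had 60.4% of the 13316 genes with at least 20 UMIs. A ratio of 0.8 or less was found for 5 of the 10 (Fos, Fosb, Jun, Junb and Dusp1), against 9.35% of all genes, and the inverse of 0.8 or more for 0 of 10, against 5.79%. The median log2 ratio of the members was -0.35 and that of all genes -0.03. Over all cells together, where the makeup of the libraries also enters, 9 of 10 members were under 1, against 60.5% of genes.

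The ratios of the AP-1 subunits were not equal. Fos, at 305 CPM in albino and 477 CPM in pigmented RPC-like cells, had a ratio of 0.64 (0.62 to 0.66). Fosb had 0.63 (0.59 to 0.67), Junb 0.72 (0.67 to 0.78) and Jun 0.74 (0.71 to 0.77). Jund, the constitutive subunit, was closest to even among them at 0.88 (0.85 to 0.90). Dusp1 had 0.74 (0.69 to 0.80) and Ier2 0.90 (0.85 to 0.94). Egr1 at 0.96 (0.89 to 1.04), Ier3 at 0.83 (0.61 to 1.12) and Atf3 at 1.0 (0.53 to 1.84) were within counting error of even. The sum was 1804 CPM in albino and 2317 CPM in pigmented cells, a ratio of 0.78 (0.77 to 0.79).

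Measures of cell quality were read in the same RPC-like cells. The mitochondrial share was 1.45% in albino and 1.75% in pigmented cells, and the ribosomal protein share 27.6% and 26.1%. The median depth was 10298 and 9777 UMIs. Their part in the ratios was not tested. The embryos of the pools differed in sex, and among cells with Xist and no Y-linked UMI the ratio of the sum was 0.76.

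The difference was present in each progenitor cluster but not of one size. The clusters differ mainly in cell cycle genes. In the cluster led by the histone genes Hist1h2ap and Hist1h1a, which are expressed during DNA replication, the sum was at 2306 CPM in albino and 3230 CPM in pigmented cells, a ratio of 0.71. In that led by Ung, with the replication licensing genes Mcm3 and Mcm6, it was at 1779 and 2250 CPM (0.79). In that led by Prc1 and Nusap1, genes of the mitotic spindle, it was at 2279 and 2650 CPM (0.86). The 2 remaining clusters, led by Ccnb2 and by Tuba1c with Ccnb1 and Cdc20, had 1071 and 1386 CPM (0.77) and 877 and 1813 CPM (0.48). In the last, of 67 albino and 114 pigmented cells, Fos was at 0.30 of the pigmented level. The members were thus highest in the clusters led by Hist1h2ap and by Prc1 in both libraries, and the 5 ratios lay under 1. The cluster led by Tuba1c, also with mitotic genes such as Aspm among its leading genes, was not among the highest. The lowest cluster was that led by Tuba1c in the albino and that led by Ccnb2 in the pigmented library.

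CMZ-like cells of the ciliary margin, the rim of the optic cup, had ratios under 1 for the AP-1 genes as well, nearer to even than in RPC-like cells for Fos, Fosb, Junb and Jund and the same for Jun. Of 9 members tested, 7 had a ratio under 1 (51.1% of all genes) and 4 a ratio of 0.8 or less (11.5%), which were Fosb, Jun, Junb and Ier3. Fos, at 0.802, lay just over that limit. Fos was at 161 CPM in albino and 200 CPM in pigmented CMZ-like cells, Fosb at 80.8 and 119 CPM (0.68), Jun at 137 and 186 CPM (0.74) and Junb at 31.5 and 40.2 CPM (0.78). Egr1, at 37.4 and 31.9 CPM (1.17, interval 0.98 to 1.39), and Ier2, at 126 and 120 CPM (1.05, interval 0.96 to 1.15), were the exceptions, within counting error of even. The summed ratio was 0.88. It was under 1 in each of the 4 CMZ-like clusters, from 0.73 to 0.92. In the CMZ-like cluster led by Wfdc1 and Aldh1a1, Egr1 had a ratio of 1.64 (1.28 to 2.11) and Ier2 of 1.17 (1.02 to 1.34). The other 3 CMZ-like clusters did not share this. Egr1 was at 0.62 (0.39 to 0.96) in that led by Gja1, at 0.67 (0.36 to 1.17) in that led by Sgk1 and at 0.97 (0.64 to 1.46) in that led by Aldh1a1 and Unc5b, and Ier2 was within counting error of even in each.

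In most classes of differentiating cells the ratios also lay under 1. In RGC-like cells 9 of 9 tested members had a ratio under 1 (53.0% of all genes) and 3 a ratio of 0.8 or less (10.8%). Fos, at 19.8 CPM in albino and 31.3 CPM in pigmented RGC-like cells, had 0.63 (0.52 to 0.76). In transitional precursor-like cells 9 of 9 were under 1 (55.9%) and 4 at 0.8 or less (15.2%), with Fosb at 13.4 and 34.3 CPM and a ratio of 0.39 (0.28 to 0.54). The summed ratio was 0.90 in RGC-like and 0.89 in transitional precursor-like cells, and also 0.89 in neurogenic-like, 0.84 in neurogenic or transitional-like and 0.90 in photoreceptor-like cells. Amacrine or horizontal-like cells stood apart, with 2 of 8 tested members under 1 (50.2%) and a summed ratio of 1.04 (0.94 to 1.14). Over the 19 retinal clusters with at least 20 cells in each library, the summed ratio was under 1 in 18, in 17 of them beyond counting error, and the amacrine or horizontal-like cluster was the exception.

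**Figure D2:**
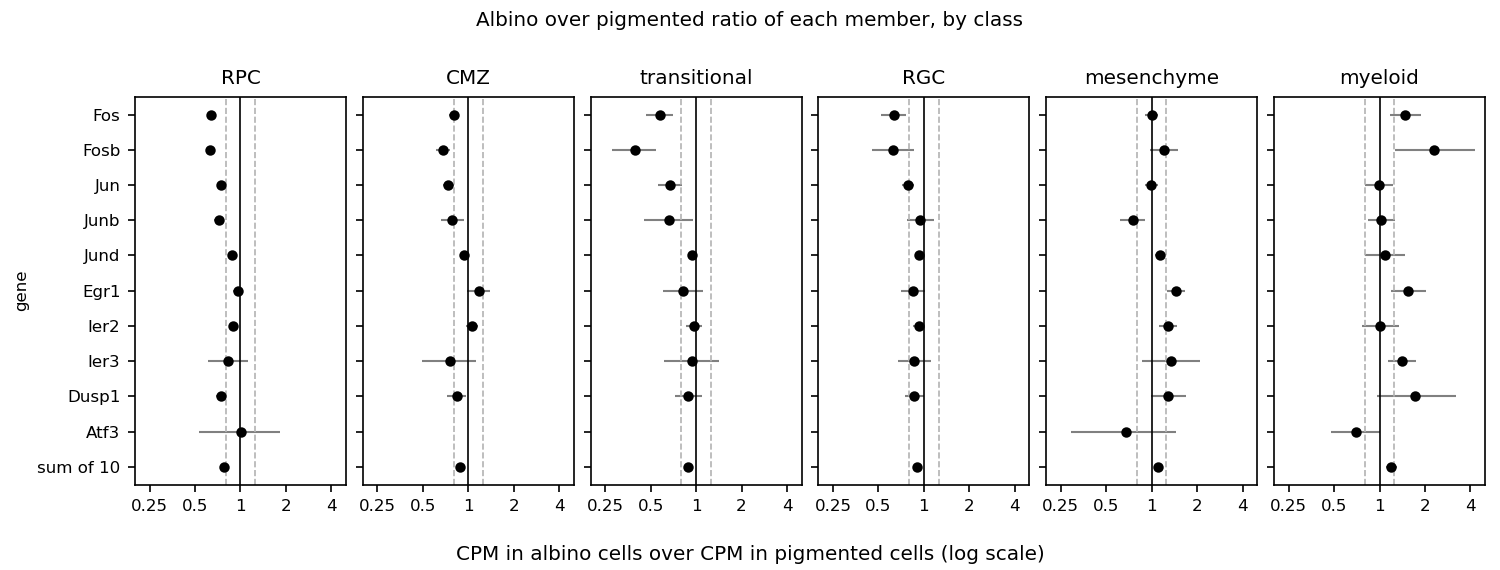
Ratio of albino over pigmented CPM for each member and their sum, on a log axis, in 6 classes. Points are ratios, bars 95% intervals of counting error, the solid line is 1 and dashed lines are 0.8 and its inverse. Fos and Fosb lie left of 1 in the 4 retinal classes (0.64 and 0.63 in RPC-like cells) and at or right of it in mesenchyme-like and myeloid-like cells.

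Mesenchyme-like and myeloid-like cells did not share this direction, while RPE-like cells had a summed ratio of 0.86 (0.75 to 0.99). Pooled over the non-retinal classes the sum was at 1943 CPM in albino and 2783 CPM in pigmented cells, a ratio of 0.70, a value in which the classes enter with unequal weight in the libraries. In mesenchyme-like cells 3 of 10 members had a ratio under 1 (51.0% of all genes), 2 a ratio of 0.8 or less (19.4%) and 4 a ratio of at least the inverse of 0.8 (17.9%). Fos, at 554 CPM in albino and 552 CPM in pigmented cells, had 1.0 (0.91 to 1.11). Egr1 had 1.44 (1.255 to 1.66), Ier2 1.28 (1.12 to 1.46) and Junb 0.75 (0.62 to 0.91). The sum was at 3225 CPM in albino and 2936 CPM in pigmented cells, a ratio of 1.10 (1.05 to 1.15). Clusters within the class did not bear that sum out. The cluster led by Prrx1 and Barx1 had 2361 and 2598 CPM, a ratio of 0.91 (0.85 to 0.97), and that led by Dkk2 and Crym 3796 and 3709 CPM, a ratio of 1.02 (0.95 to 1.10). The cluster led by Prrx1 holds 44 of 91 albino and 112 of 166 pigmented cells, so the class sums weigh the clusters unequally, and Fos was under 1 in both (0.85 and 0.81). Egr1 was above 1 in both, at 1.23 and 1.04. One more cluster of the class, led by Dlk1 and Col3a1 with 19 albino and 23 pigmented cells, had a sum of 4162 and 3791 CPM.

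In myeloid-like cells 2 of 10 members had a ratio under 1 (49.1% of all genes), 1 a ratio of 0.8 or less (23.1%) and 5 a ratio of at least the inverse of 0.8 (25.8%). Fos was at 756 CPM in albino and 511 CPM in pigmented cells, a ratio of 1.48 (1.17 to 1.87), Egr1 had 1.55 (1.20 to 2.02) and Ier3 1.41 (1.13 to 1.76). Junb, at 738 and 718 CPM, had 1.03 (0.83 to 1.27). The intervals cover counting error alone, and a few cells set these levels.

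**Figure D3:**
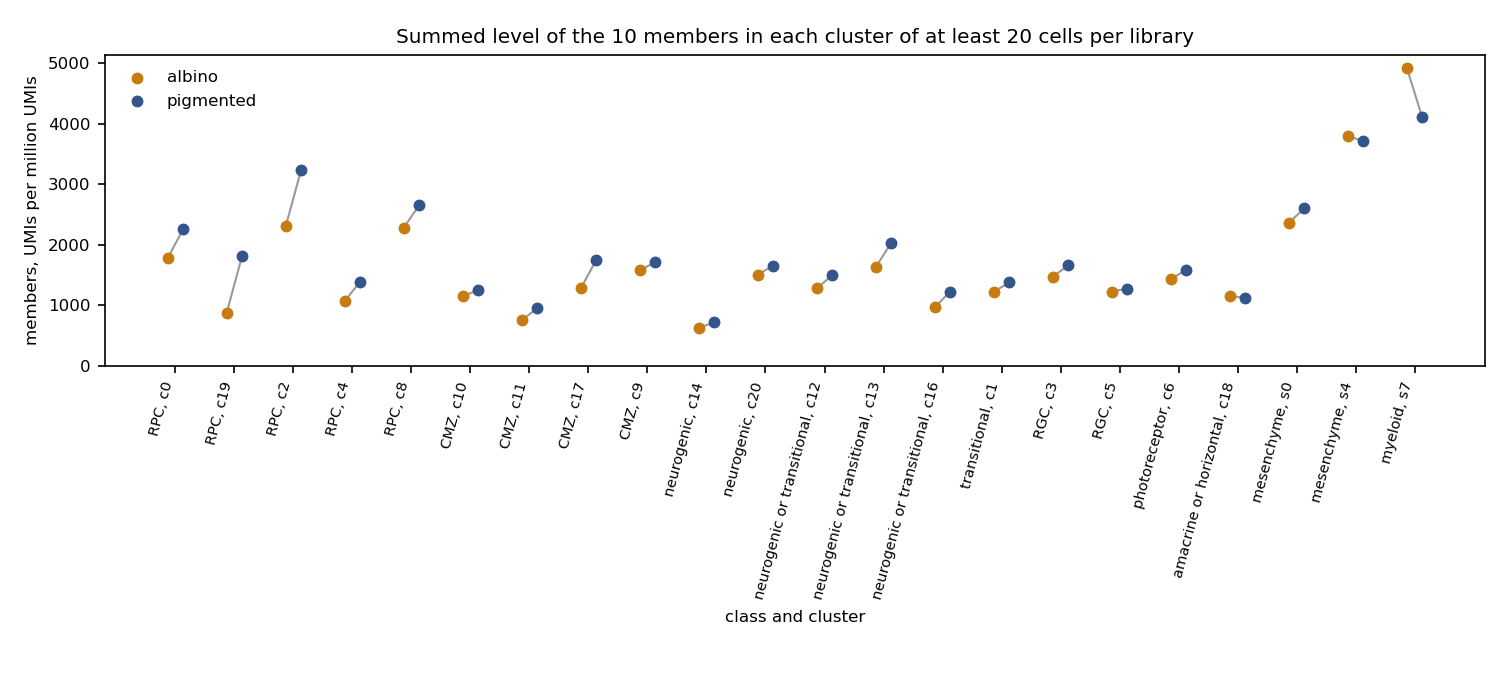
Summed level of the 10 members, in UMIs per 1000000, in each cluster of at least 20 cells per library, albino and pigmented joined by a line and ordered by class. Albino values lie lower in 18 of 19 retinal clusters, and the myeloid-like cluster has the highest level at 4915 CPM in albino and 4101 CPM in pigmented cells.

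Single cells often held several members. The share of cells that did so rises with the members' levels alone, so it does not show that members go together. That was read from pairs, given below. Each cell was thinned to 5800 UMIs, which left out 104 albino and 186 pigmented RPC-like cells as too shallow. At least 3 of the 10 members were then detected in 72.3% (69.4 to 75.1%, Clopper-Pearson interval) of albino and 82.1% (80.3 to 83.8%) of pigmented RPC-like cells, and in 83.9% and 89.6% without thinning. At least 5 were detected in 38.7% and 52.6%. CMZ-like cells had at least 3 in 49.4% and 62.2%, transitional precursor-like cells in 36.8% and 48.3%, RGC-like cells in 39.5% and 51.3%, and mesenchyme-like cells in 97.5% and 93.5%. In these retinal classes the albino share was below the pigmented share, and in mesenchyme-like cells it was not, where the intervals overlap. Amacrine or horizontal-like cells had 56.5% in albino and 48.6% in pigmented cells, also with overlapping intervals.

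Single members entered the shares of cells with at least 3 members unequally. Fos was detected in 55.4% of albino and 68.6% of pigmented RPC-like cells after thinning, in 8.33% and 14.3% of RGC-like cells, the class with the lowest level, and in 81.5% and 74.5% of mesenchyme-like cells. A share from free RNA would be included in each of these, and its size was not measured. Jund was detected in 95.1% and 96.5% of RPC-like and 99.5% and 99.4% of RGC-like cells, so that 1 of the members counted in nearly every cell is Jund. The median number of members detected was 4 in albino and 5 in pigmented RPC-like cells. The summed UMIs of a cell varied far more than counting alone gives, with a variance over mean of 7.70 in albino and 7.96 in pigmented RPC-like cells, against 2.0 and 1.93 in RGC-like cells.

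**Figure D4:**
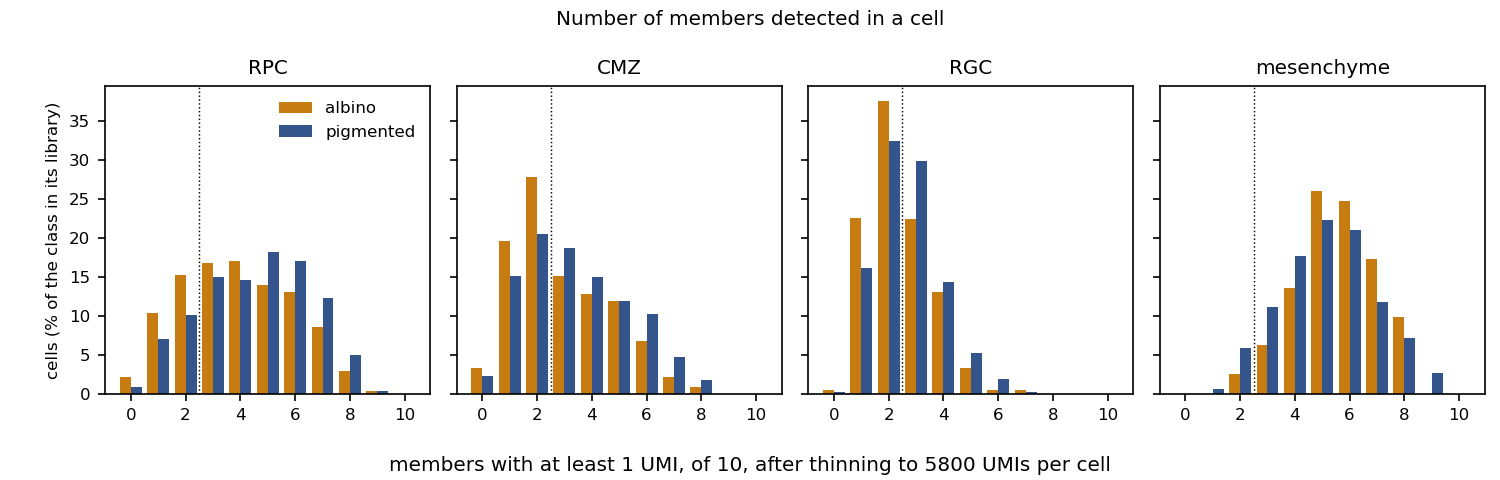
Share of cells, in percent of the class in its library, by the number of members with at least 1 UMI after thinning to 5800 UMIs, for 4 classes. The dotted line separates cells with 3 or more members, which are 72.3% of albino and 82.1% of pigmented RPC-like cells.

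RPC-like cells were then ordered by their Fos UMIs after thinning. The other 9 members summed to 929, 1531, 1819 and 2942 CPM in albino cells with 0, 1, 2 to 3 and 4 or more Fos UMIs, and to 1073, 1612, 1952 and 2972 CPM in pigmented cells. The level of the other members thus went up with Fos in both libraries. Since Fos itself differs between the libraries and sets the bins, levels within a bin are no comparison of the libraries. The top bin held 18.2% of albino and 30.7% of pigmented RPC-like cells, and the bin with no Fos UMI 44.6% and 31.4%.

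Members differed in how far they went up with Fos. Between the bins of 0 and of 4 or more Fos UMIs, Fosb was at 41.8 and 309 CPM in albino cells and at 73.3 and 342 CPM in pigmented cells. Egr1 was at 24.1 and 164 CPM in albino and 29.3 and 144 CPM in pigmented cells, and Junb at 30.4 and 207 CPM and 41.7 and 198 CPM. Jund, at 532 and 1170 CPM in albino and 586 and 1180 CPM in pigmented cells, also followed Fos, with a smaller relative step. Other immediate early genes, 42 genes listed for comparison such as Btg2, Klf4 and Socs3, went with them, at 1312 and 1957 CPM in albino and 1302 and 2128 CPM in pigmented cells.

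Summed over their lists, genes of neighbouring systems did not follow Fos. The 14 heat shock genes were at 6596 CPM with no Fos UMI and 6415 CPM with 4 or more in albino cells. In pigmented cells they were at 6483 and 6443 CPM. Abundant genes set that sum, with Hsp90ab1 at 2322 CPM over all albino cells and Hspa1a at 2.45 CPM. Whether low members of the list such as Hspa1a follow Fos cannot be read from it. The 18 SRF and MAP kinase genes, the upstream machinery, were at 533 and 488 CPM in albino and 503 and 555 CPM in pigmented cells. The mitochondrial share was 1.44% with no Fos UMI and 1.15% with 4 or more in albino cells, and 1.77% and 1.45% in pigmented cells. Bins share the library and the thinned depth, and they gather cells of several clusters. Within the cluster led by Ung alone, the other 9 members were at 993 CPM with no Fos UMI and 2678 CPM with 4 or more in albino cells, and at 1195 and 2868 CPM in pigmented cells.

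**Figure D5:**
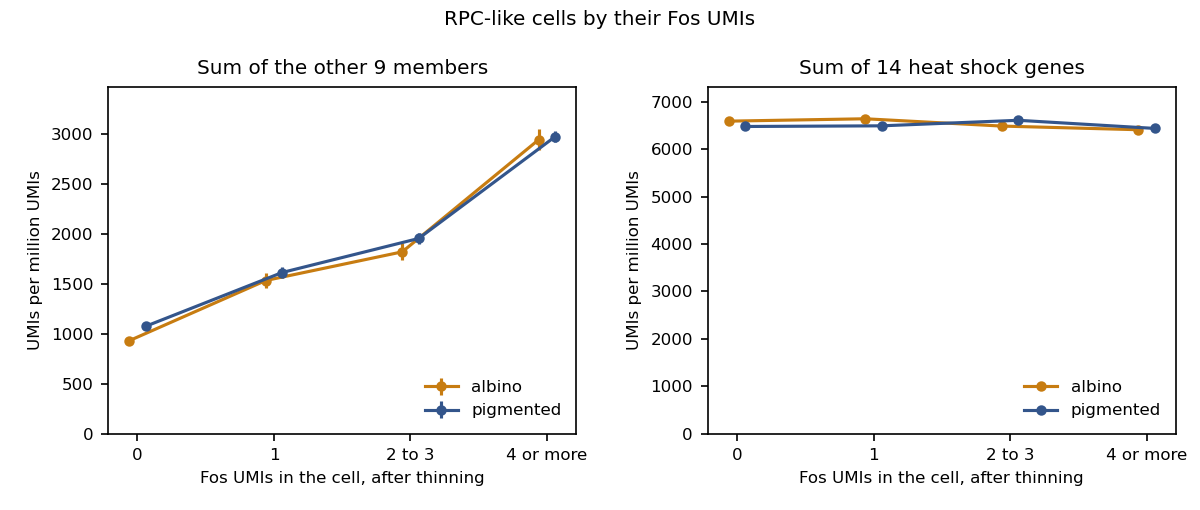
RPC-like cells binned by Fos UMIs after thinning to 5800 UMIs. Left, summed level of the other 9 members in UMIs per 1000000 with 95% counting intervals, and right, that of 14 heat shock genes. The members reach 2942 CPM in albino and 2972 CPM in pigmented cells of the top bin. The heat shock sum, set by abundant genes such as Hsp90ab1, lies between 6415 and 6646 CPM.

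In progenitors, pairs of members were found in the same cell more often than their separate shares give. Of the 45 pairs, those with an expected count of at least 5 cells were read. In RPC-like cells the median of observed over expected was 1.254 in albino and 1.18 in pigmented cells, and 38 of 38 and 40 of 42 pairs were above 1. Pairs of a member with a heat shock gene had a median of 1.0 in both libraries, and pairs with an SRF or MAP kinase gene 1.0 and 1.01. A gene found in nearly every cell gives a value near 1 whatever the cells do. The heat shock list holds abundant genes such as Hsp90ab1, at 2322 CPM over all albino cells, so its median is no contrast to the members. Single heat shock pairs ran from 0.56 to 1.48 in albino and from 0.17 to 1.45 in pigmented cells. Junb with Egr1 had 1.72 in albino and 1.495 in pigmented cells. The medians were 1.36 and 1.28 in CMZ-like and 1.13 and 1.06 in RGC-like cells, and 1.01 and 1.05 in mesenchyme-like cells. Transitional precursor-like cells had medians near 1 too, 1.003 and 1.03, with 10 of 19 albino and 27 of 33 pigmented pairs above 1. Within single RPC-like clusters they were 1.23 and 1.14 (led by Ung) and 1.13 and 1.06 (led by Hist1h2ap). The pairs read differ between classes. Members found in most cells, as in mesenchyme-like cells, also leave little room above 1. The medians therefore do not rank the classes.

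The genes nearest to the members in single RPC-like cells were ranked by Pearson correlation with the mean of the members, taking the lower of the libraries' values, among 9668 genes. Id1, an inhibitor of basic helix-loop-helix factors, led at 0.47, followed by Socs3, a feedback inhibitor of cytokine signalling, at 0.31, Btg2, an antiproliferative gene, at 0.29, and Ccn1, a matrix protein gene, at 0.29. The other 4 were the histone genes Hist1h2ae, Hist1h1b, Hist1h1e and Hist1h2ap, from 0.27 to 0.25. Id1 was at 475 CPM in albino and 522 CPM in pigmented RPC-like cells and Socs3 at 38.8 and 64.4 CPM. Across classes, over 22 points of class and library and 10301 genes, the nearest were Heatr5a at 0.94, then Zyx, Scarb1, Blvrb, Klf2, Olfml3, Anxa7 and Emp3, down to 0.93. Among the members, Junb followed their mean over classes most closely, at 0.98, then Egr1 at 0.90, and Jund ran against it at -0.52. The points share a library or a class, and myeloid-like and mesenchyme-like cells set much of the range.

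Related gene lists were read in the same way. Of 41 other immediate early genes tested in RPC-like cells, 32 had a ratio under 1 (60.4% of all genes), 13 a ratio of 0.8 or less (9.35%) and 1 a ratio of at least the inverse of 0.8 (5.79%), with a median log2 ratio of -0.12 against -0.03 for all genes. In myeloid-like cells 5 of 21 were under 1 (49.1% of all genes) and 14 at the inverse of 0.8 or more (25.8%). Values of single genes are over all cells, where the makeup of the libraries also enters. Klf4, a zinc finger factor, was at 17.4 CPM in albino and 28.3 CPM in pigmented cells (0.61). Sgk1, a serum-induced kinase gene, was at 11.7 and 20.5 CPM (0.57). It also led a CMZ-like cluster of 69 albino and 240 pigmented cells. The most abundant of the list, Zfp36l1, which encodes a protein that promotes decay of AU-rich RNA, was at 222 and 266 CPM (0.84), Btg2 at 168 and 193 CPM (0.87) and Btg1 at 140 and 172 CPM (0.81). The list thus shared the direction in progenitors with a smaller median than the members.

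Lists outside the immediate early response lay near the median of all genes in RPC-like cells. That median log2 ratio was -0.03, and 60.4% of all genes had a ratio under 1. The other AP-1 and ATF genes had 10 of 16 under 1 and a median of -0.03, the SRF and MAP kinase genes 9 of 18 and 0.00, and the heat shock genes 7 of 14 and 0.01. Over all cells, Jdp2, a repressor of AP-1, was at 1.81 CPM in albino and 2.67 CPM in pigmented cells (0.68). Atf4 was at 89.5 and 94.9 CPM (0.94), Atf2 at 65.3 and 63.0 CPM (1.04) and Creb1 at 58.8 and 59.3 CPM (0.99). Among the MAP kinase genes, Map2k2 had 1.0, Mapk3 1.07 and Mapk8 1.09.

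Of the heat shock genes, those with most UMIs over all cells were close to even, with Hsp90ab1 and Hsp90aa1 both at 0.95 and Hspa8 at 1.05. Hspd1 was at 454 CPM in albino and 522 CPM in pigmented cells (0.87). Hspa1a, which is induced by heat and by handling of cells, was at 2.45 CPM in albino and 4.71 CPM in pigmented cells, a ratio of 0.52 in the direction of Fos. Its part in the ratios of the members was not tested.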

How the data were processed

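Counts of UMIs per gene and cell were used as deposited by the authors, 1 matrix for each library. Per the labels' protocols, a droplet 3′ kit was used. Cell Ranger 2.1.1 and mm10 stand in the submitters' processing notes and Cell Ranger 5.0.1 in the matrix headers, so the version is unsettled. Deposited barcodes started at 501 (albino) and 500 (pigmented) UMIs, and no source used here says how they were chosen.

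Cells with under 500 genes (110 albino and 134 pigmented) or over 10% mitochondrial UMIs (136 and 188) were removed, as were barcodes with a Scrublet score over 0.25 (52, 1.41%, and 140, 2.30%). That score limit replaced the automatic one, which marked 5 and 1 barcodes. Scanpy 1.11.5 and leidenalg 0.10.2 (Python 3.11.15, NumPy 2.4.6, SciPy 1.17.1, pandas 2.3.3, scikit-learn 1.9.0, matplotlib 3.10.9) clustered the libraries together from 2000 variable genes, 30 principal components and 15 neighbours at resolution 1.0, with the members, the other gene lists, and mitochondrial, ribosomal protein, haemoglobin and sex-linked genes left out. A cluster was named for the class whose markers had the highest mean log2 fold, if that led by 0.3 and at least 3 markers were detected in 10% of its cells. Clusters outside the retina were clustered again, and clusters that neurogenic and transitional markers did not separate were joined. The rebuilt names may differ from the study's.

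Levels have exact Poisson intervals, ratios conditional exact intervals and shares Clopper-Pearson intervals. Log2 ratios add 1 UMI to each library, and genes with at least 20 UMIs over both libraries entered counts and background shares. The steps were tested on simulated data. The members and lists were chosen with earlier results of these data known. Named genes were all members, the 8 nearest by each correlation, and from each other list the 3 with most UMIs and the 2 whose interval lay farthest from 1. The values of 2 list genes that this rule names are not reported here. Clusters were named singly after their values were seen. With 1 library per group no test was made.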

Additional observations from a re-analysis of the deposited data

Results flagged for a closer look

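The ratio of albino over pigmented for the sum of the 10 members was 1.10 (1.05 to 1.15) in mesenchyme-like cells, at 3225 CPM in albino and 2936 CPM in pigmented cells, and 0.78 (0.77 to 0.79) in RPC-like cells. These intervals lie on opposite sides of 1, and the difference between the classes was not tested. Clusters of the mesenchyme-like class did not bear its value out, at 0.91 (led by Prrx1) and 1.02 (led by Dkk2). The class sums weigh these clusters unequally in the libraries. In myeloid-like cells the sum had a ratio of 1.20 (1.10 to 1.30), at 4915 CPM in albino and 4101 CPM in pigmented cells, on the opposite side of 1 from RPC-like cells as well.

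For single members in myeloid-like cells, Fos had 1.48 (1.17 to 1.87) against 0.64 in RPC-like cells, and Fosb 2.28 (1.27 to 4.32) against 0.63, with 46 albino and 16 pigmented UMIs. In amacrine or horizontal-like cells, Jun was at 79.0 CPM in albino and 45.7 CPM in pigmented cells, a ratio of 1.73 (1.12 to 2.68), on 46 and 43 UMIs, against 0.74 in RPC-like cells. None of these differences between classes was tested.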

How the results depend on the processing

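The direction of the summed ratio of albino over pigmented in RPC-like cells (0.78) was kept under all 20 alternatives. It was 0.76 at resolution 1.5, 0.76 with members and lists kept in the clustering, 0.77 with every cell weighted equally, 0.79 with scaling without mitochondrial, ribosomal protein and haemoglobin genes, 0.80 relative to the median ratio of all genes, 0.72 without Jun and Jund, 0.80 as the mean of log2 ratios, and 0.76 in cells with Xist and no Y-linked UMI. Within single clusters, an alternative chosen after seeing the data, it was 0.71 (led by Hist1h2ap), 0.86 (Prc1) and 0.48 (Tuba1c). The summed ratio in mesenchyme-like cells (1.10) turned to 0.97 in cells with Xist and no Y-linked UMI and to 0.91 within the cluster led by Prrx1. The cause was not tested. Of 10 members, 9 to 10 were lower in albino RPC-like cells under the alternatives, and 6 to 9 over all cells, the 6 relative to the median ratio of all genes.

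The summed level of non-retinal over retinal cells was 1.34 in the albino and 1.59 in the pigmented library. In the albino library it was 1.28 at a limit of 5% mitochondrial UMIs, 1.29 at resolution 1.5, 1.28 with lists kept, 1.23 with classes from marker scores, 1.84 with equal weights, 1.46 with the other scaling, 1.59 relative to the median gene, 2.07 without Jun and Jund, 2.35 as mean of log2 ratios and 1.40 without the 1% of cells with most member UMIs. In the pigmented library it was, in the same order, 1.55, 1.44, 1.51, 1.20, 1.45 and 1.67, then 2.05 without Jun and Jund, 2.66 as mean of log2 ratios and 1.49 with cell cycle genes left out of the clustering.

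The share of RPC-like cells with at least 3 members was 72.3% in the albino library. It became 77.8% at 5% mitochondrial UMIs, 76.7% at resolution 1.5, 75.9% with lists kept, 54.2%, 79.3% and 83.9% with thinning to 3000, to 8000 and none, and 39.6% when 5 or more were required. From 82.1%, the pigmented share became 85.6%, 86.6%, 85.3%, 66.3%, 85.5%, 89.6% and 52.6% under the same settings, 79.0% at resolution 0.6, 80.2% with cell cycle genes left out and 79.6% with marker scores. It was lower in albino than in pigmented cells in 13 of 13 settings for RPC-like, CMZ-like and RGC-like cells, and in 1 of 13 for mesenchyme-like cells. Thinning was drawn anew for these settings, so the albino share of 39.6% with 5 or more members differs from the 38.7% of the first draw. No paired analysis was possible because each group has 1 library. Depth limits Atf3 and Ier3 most, with 18 and 32 UMIs of Atf3 in albino and pigmented RPC-like cells.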

Other observations

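Cells that took no class also carried members. The sum was at 972 CPM in albino and 579 CPM in pigmented cells of an unnamed cluster led by Spdl1 and Pcnt (26 and 107 cells), a ratio of 1.68 (1.39 to 2.01). In a cluster led by the crystallin genes Cryaa and Cryba1 (41 and 80 cells), the structural proteins of the lens, it was at 583 and 601 CPM, the lowest level beside that cluster in the pigmented library. A cluster with collagen and haemoglobin RNA (36 and 58 cells) had 2260 and 2413 CPM, near the levels of the mesenchyme-like cluster led by Prrx1.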
